A study of Mus musculus with 24 samples.

Results

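The resident-type macrophage genes are 10 transcripts: Mrc1, Cd163, Clec10a, Mgl2, Lyve1, Folr2, C1qa, C1qb, C1qc and Timd4. They are used as markers of the macrophages which live in healthy fat and other tissues, and the name is not a result of these data. They were chosen by name, and each was found by the accession printed with its array probe; each of the 10 had 1 probe, among 20660 named genes on the array. Of the 10, 9 passed the filter on dim probes, which 13014 named genes and 21051 features in all passed. Timd4 did not pass, and its values are given apart.

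RNA was measured in epididymal white fat, a visceral depot attached to the epididymis, of 24 male C57BL/6JRcc mice of 28 or 29 weeks. The No NR group (12 mice) had eaten for 18 weeks a semi-synthetic diet without nicotinamide riboside, a vitamin B3 compound and precursor of the cofactor NAD, and the Ctrl NR group (12 mice) ate the same diet with 30 mg of it per kg. Both groups were kept on low but sufficient tryptophan, another precursor of NAD, had eaten the Ctrl NR diet beforehand, and were fasted and then refed for a few hours before the tissue was taken. The Cy5-labelled RNA of 1 mouse was hybridised on each array against a Cy3-labelled pool of fat RNA that also held females and other diets. Each value is the log2 of a mouse's signal over that pool, so 0 means the level of the pool and 1 log2 unit a doubling, and differences are No NR minus Ctrl NR. Both diets were present on all 5 slides, and the share of spots well above background in Cy5 was 34.5% to 50.7% per array. The number of arrays limits the precision.

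Macrophages of adipose tissue are of several kinds. Resident cells sit along vessels, take up debris, hemoglobin and lipoproteins through scavenger and lectin receptors, and secrete C1q, which binds to dying cells and immune complexes and opens the classical complement pathway. In expanding fat, macrophages of another kind gather around dying adipocytes and fill with lipid; these lipid-associated macrophages are known by other transcripts. A fat pad is bulk tissue, so a higher ratio can come from more cells of a type or from more RNA per cell, and these cannot be told apart here.

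The sequences just upstream of the start sites show what the genes share and do not share at the DNA level. RefSeq (GRCm38.p6) gave a promoter for 7 of the 10 genes, and the 250 bases upstream of the start are shown for 4 of them. C1qb, C1qc and Mrc1 were chosen because their ratios followed the general myeloid level of the mouse, and Cd163 because its ratio did not rise with it. Capitals mark GAGGAA or its reverse complement TTCCTC, a form of the motif bound by PU.1, the transcription factor that all macrophages require. Other forms of that motif were not counted, so a window without capitals may hold them.

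C1qb: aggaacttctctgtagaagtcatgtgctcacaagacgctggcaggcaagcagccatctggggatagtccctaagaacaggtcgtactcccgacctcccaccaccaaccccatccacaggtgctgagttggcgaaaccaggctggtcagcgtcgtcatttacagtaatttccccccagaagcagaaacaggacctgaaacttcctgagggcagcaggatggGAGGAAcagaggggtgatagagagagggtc
C1qc: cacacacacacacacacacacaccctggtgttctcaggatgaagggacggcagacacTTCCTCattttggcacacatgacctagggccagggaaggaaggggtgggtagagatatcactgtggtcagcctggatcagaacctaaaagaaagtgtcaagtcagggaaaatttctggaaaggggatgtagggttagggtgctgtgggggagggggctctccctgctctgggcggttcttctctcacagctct
Mrc1: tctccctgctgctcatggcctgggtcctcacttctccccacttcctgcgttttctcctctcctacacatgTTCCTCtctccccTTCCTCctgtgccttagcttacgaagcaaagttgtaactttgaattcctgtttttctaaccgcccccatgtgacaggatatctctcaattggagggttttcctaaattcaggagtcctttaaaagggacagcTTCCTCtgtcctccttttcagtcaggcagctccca
Cd163: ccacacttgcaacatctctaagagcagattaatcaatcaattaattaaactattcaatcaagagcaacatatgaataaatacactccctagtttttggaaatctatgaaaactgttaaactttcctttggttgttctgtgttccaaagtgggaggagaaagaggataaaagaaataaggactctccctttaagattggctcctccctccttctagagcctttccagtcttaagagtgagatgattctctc

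The C1qb window is chr4:136886201-136886450 on the minus strand, the C1qc window is chr4:136892915-136893164 on the minus strand, the Mrc1 window is chr2:14229164-14229413 on the plus strand, and the Cd163 window is chr6:124304401-124304650 on the plus strand. Mrc1 held 3 matches, C1qb and C1qc held 1 each, as did Mgl2, and Cd163, Timd4 and the windows of Folr2 held 0. The printed windows of C1qb, C1qc and Mrc1 held matches and that of Cd163 held 0, but these genes were picked by their slopes. Whether matches go with the myeloid level was not tested. Of the genes whose windows are not printed, Folr2 followed that level (slope of 0.79 per log2 unit) with 0 matches, and Mgl2 (slope of 0.073) held 1. Of 32851 promoters of the same length, 23.3% held a match on either strand. The palindrome bound by STAT6, the factor that interleukin-4 activates (TTC and GAA with 4 bases between them), was in 0 of the windows of these genes and in 5.85% of all promoters. A match is a string of letters and not a binding site. The genes C1qb, C1qc and C1qa lie next to each other on chromosome 4, and Mgl2 lies next to Clec10a on chromosome 11, as paralogs that encode galactose-binding lectins; whether the Clec10a and Mgl2 probes also take up each other's transcript was not tested.

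Withdrawal of vitamin B3 was compared with its presence first, and the diets' values overlapped for every gene. Of the 9 measured genes, 0 passed the threshold (limma, adjusted p under 0.05, Benjamini-Hochberg over 21051 features), and of all features 0% did. At an unadjusted p under 0.05, too, 0 of the 9 were listed, against 14.1% of all features (6.87% higher and 7.25% lower in No NR mice). The log2 fold change was above 0 for 7 of the 9 genes with a median of 0.11, while 47.6% of all features lay above 0 with a median of -0.0064; C1qc, Clec10a, Mgl2 and Mrc1 stood below 0 with median centring in place of loess, and the C1q chains and Mrc1 when arrays were also scaled to equal spread.

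The 3 chains of C1q, which assemble into the recognition molecule of the classical complement pathway, varied widely within each diet. C1qa ranged from -1.32 to 0.44 with a median of -0.13 in No NR mice, and from -1.64 to 0.55 with a median of -0.43 in Ctrl NR mice. C1qb ranged from -1.81 to 0.76 with a median of 0.014 in No NR mice, and from -1.67 to 0.77 with a median of -0.37 in Ctrl NR mice. C1qc ranged from -0.83 to 0.38 with a median of 0.087 in No NR mice, and from -1.0 to 0.65 with a median of -0.11 in Ctrl NR mice. For all 3 chains each diet held mice near the top and near the bottom of the range, and the groups overlapped almost entirely. The log2 fold changes were 0.20 for C1qa (SE 0.239, limma adjusted p = 0.733), 0.21 for C1qb (SE 0.295, adjusted p = 0.766) and 0.11 for C1qc (SE 0.196, adjusted p = 0.827). The interval of C1qb ran from -0.39 to 0.82 (95%), so that neither a clear rise nor a moderate fall in No NR mice lies outside it.

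The C1qc probe was printed 10 times on each array, which shows the noise between spots, though not that of labelling or between arrays. The SD among its spots within an array had a median of 0.0956 on the log2 scale and ranged from 0.053 to 0.232. Between mice the SD was 0.459 in the No NR and 0.577 in the Ctrl NR group; this spread holds the labelling and array noise as well as the difference between mice. Over all 24 mice the highest C1qb ratio was 5.98 times the lowest, and its SD exceeded that of 99.2% of all features. The corresponding ratios were 4.56 for C1qa and 3.14 for C1qc.

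Folr2 encodes the folate receptor beta, a surface protein by which perivascular resident macrophages are recognised. It ranged from -0.58 to 0.98 with a median of 0.26 in No NR mice, and from -0.99 to 0.55 with a median of -0.0066 in Ctrl NR mice. The highest mouse was in the No NR group and the 3 lowest were in the Ctrl NR group, with overlap between them. Its log2 fold change of 0.30 (SE 0.184, 95% interval -0.081 to 0.67) was the largest of the 9 and did not pass the test (limma adjusted p = 0.474).

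Mrc1, the mannose receptor CD206, and Cd163, the receptor that takes up hemoglobin bound to haptoglobin, are endocytic receptors. Mrc1 ranged from -0.60 to 0.49 with a median of 0.14 in No NR mice, and from -0.54 to 0.43 with a median of -0.067 in Ctrl NR mice. Cd163 ranged from -0.39 to 0.59 with a median of -0.028 in No NR mice, and from -0.27 to 0.43 with a median of 0.13 in Ctrl NR mice. For both receptors the ranges of the diets nearly coincided. The log2 fold change was 0.084 for Mrc1 (SE 0.130, limma adjusted p = 0.795) and -0.14 for Cd163 (SE 0.0963, limma adjusted p = 0.542). The Cd163 probe was dim, well above background on 7 No NR and 9 Ctrl NR arrays, and its Cy5 signal had a median of 56.5 in No NR and 68.8 in Ctrl NR mice; the offset of 50 added before the logarithm pulls the ratios of so dim a probe towards 0. The other 8 measured genes were well above background on all 24 arrays, and 0 spots of the genes were saturated.

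Clec10a and Mgl2 encode the macrophage galactose-type lectins MGL1 and MGL2, which bind sugars with terminal galactose or N-acetylgalactosamine; both are known as markers of macrophages treated with interleukin-4, and Mgl2 also of a class of dendritic cells. Clec10a ranged from -0.19 to 0.74 with a median of 0.13 in No NR mice, and from -0.48 to 0.76 with a median of 0.11 in Ctrl NR mice. Mgl2 ranged from -0.054 to 0.52 with a median of 0.23 in No NR mice, and from -0.47 to 0.51 with a median of 0.076 in Ctrl NR mice. For Clec10a 2 Ctrl NR mice lay below the No NR range, and for Mgl2 1 did. The highest value was that of a Ctrl NR mouse for Clec10a and of a No NR mouse for Mgl2. The log2 fold changes of 0.075 for Clec10a (SE 0.122, limma adjusted p = 0.807) and 0.11 for Mgl2 (SE 0.0846, limma adjusted p = 0.592) did not pass. Mgl2 was among the steadiest of the genes, with an SD above that of 55.2% of all features and a highest value 1.99 times the lowest.

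Lyve1 encodes a receptor for hyaluronan that marks a perivascular class of resident macrophages and also lymphatic endothelium. It ranged from -0.62 to 1.19 with a median of -0.26 in No NR mice, and from -1.01 to 1.21 with a median of -0.036 in Ctrl NR mice. In No NR mice 10 of the 12 values lay below 0 and the other 2 were at 0.68 and 1.19; in Ctrl NR mice 6 values lay above 0 and 6 below. The log2 fold change was -0.16 (SE 0.223, 95% interval -0.61 to 0.30, limma adjusted p = 0.777). The highest ratio of Lyve1 was 4.66 times the lowest over the 24 mice.

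Timd4 encodes a phosphatidylserine receptor of long-lived resident macrophages, by which they bind dying cells. Its probe was well above background on 3 No NR and 3 Ctrl NR arrays. Without the filter its ratio ranged from -0.45 to 0.69 with a median of -0.14 in No NR mice, and from -0.33 to 0.69 with a median of -0.12 in Ctrl NR mice. In each diet 1 mouse stood at 0.69 above the rest. These same mice had Lyve1 at 1.19 (No NR) and 0.68 (Ctrl NR) and Cd163 at 0.59 (No NR) and 0.32 (Ctrl NR), at or near the top of their groups. The log2 fold change of Timd4 was -0.010 (limma adjusted p = 0.990, no filter).

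**Figure D1:**
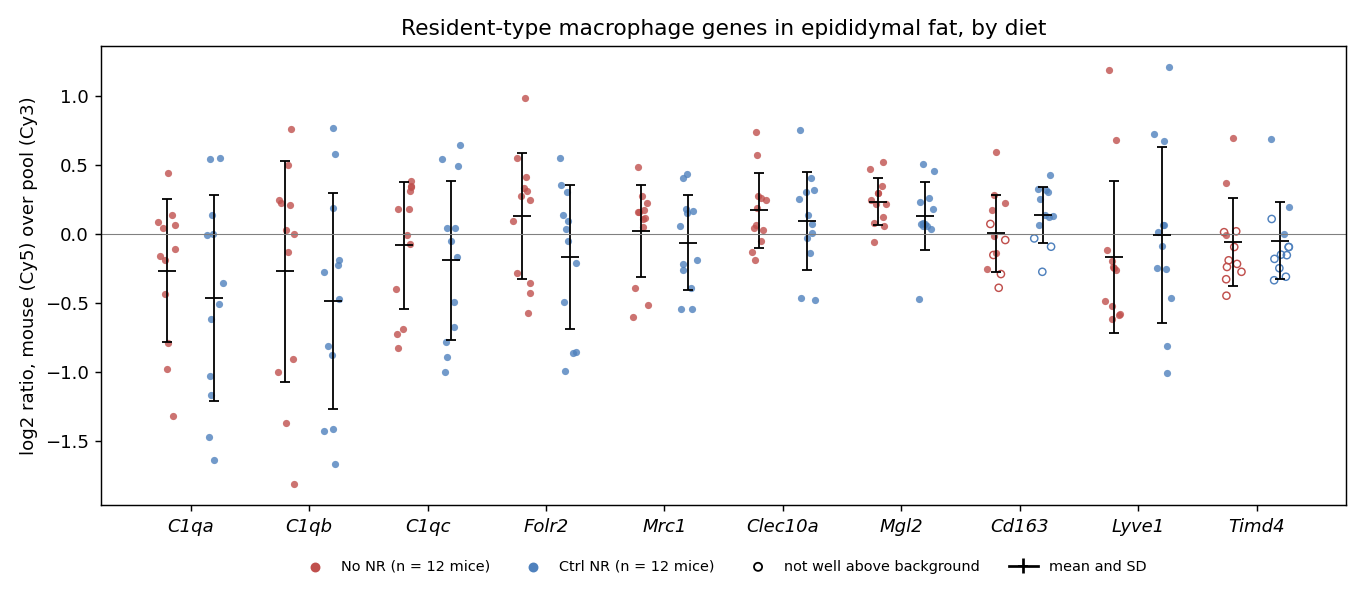
Log2 ratio of each mouse over the pool (vertical axis) for the 10 genes (horizontal axis), with No NR on the left and Ctrl NR on the right of each pair; points are mice, open points were not well above background, and bars are mean and SD (n = 12 per diet). The diets overlap for every gene, and the spread within a diet is widest for C1qb, C1qa and Lyve1 and narrow for Mgl2.

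Slides were then considered as a batch. Within the 5 slides the sign of the difference was mixed for all 9 genes: Mrc1, Clec10a, Mgl2, Folr2 and the C1q chains were higher in No NR mice on 3 of the 5, Lyve1 on 2 and Cd163 on 1. For C1qb the difference within a slide ran from -1.19 to 0.73. On the 2 slides where C1qb was lower in No NR mice, at -1.19 and -0.57, the mean of general myeloid genes was lower there too, at -0.39 and -0.27, and on the other 3 slides both were higher. Each slide held only 1 to 4 mice of a diet, and no slide was tested alone.

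Because the mice differed so much within a diet, each gene was next set against the general myeloid level of the same mouse. That level was the mean log2 ratio of 21 pan-myeloid genes, none of them among the 10, such as Adgre1 (F4/80), Tyrobp (a signalling adaptor) and Laptm5 (a lysosomal protein). It ranged from -0.86 to 0.63 with a median of 0.16 in No NR mice, and from -1.27 to 0.55 with a median of -0.26 in Ctrl NR mice. In the No NR group 4 mice lay at or below -0.71 and the other 8 at or above 0.084, whereas over all 24 mice the widest gap was 0.34. Of the pan-myeloid genes 20 had a log2 fold change above 0 and 1 below, with a median of 0.25 that was 0.13 with median centring and -0.045 with arrays scaled to equal spread, and 0 passed the diet test. Fcgr3, an Fc receptor, averaged 0.34 ± 0.64 in No NR mice and -0.34 ± 0.71 in Ctrl NR mice (SD, n = 12 each; limma adjusted p = 0.225), and Itgam, an integrin of myeloid cells, averaged 0.24 ± 0.14 in No NR mice and 0.031 ± 0.21 in Ctrl NR mice (adjusted p = 0.217).

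The resident-type genes did not follow the myeloid level as a block. Per log2 unit of the pan-myeloid mean, with diet in the model, 7 of the 9 had a slope past the threshold, 6 of them positive and 1 negative (Lyve1, above 0 with median centring in place of loess); among all features 26.5% passed, 16.2% with a positive and 10.3% with a negative slope. The median slope of the 9 was 0.47, and that of all features was 0.0085. C1qb had the steepest slope, 1.27 (SE 0.0797, limma adjusted p = 1.91e-13), followed by C1qa at 1.01 (SE 0.0739, limma adjusted p = 5.35e-12). C1qc followed at 0.85 (SE 0.0511, limma adjusted p = 8e-14) and Folr2 at 0.79 (SE 0.0548, limma adjusted p = 2.02e-12). A doubling of the pan-myeloid mean thus went with 2.42 times the C1qb, 2.02 times the C1qa, 1.80 times the C1qc and 1.73 times the Folr2 ratio.

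The receptors and lectins had shallower slopes. Mrc1 rose by 0.47 per log2 unit (SE 0.0673, limma adjusted p = 2.24e-06), which is 1.39 times for a doubling, and by 0.82 with median centring in place of loess. Clec10a rose by 0.27 (SE 0.0923, limma adjusted p = 0.0320), a call that was lost without any 1 of 5 mice (Ctrl NR 115, 75, 88 or 95, or No NR 74; adjusted p of at most 0.0984) and with slide as a block (adjusted p = 0.0617), whereas with median centring its slope was 0.73 (adjusted p = 6.1e-08). Mgl2 stood at 0.073 (SE 0.0725, 95% interval -0.075 to 0.22, limma adjusted p = 0.522), and without the Ctrl NR mouse of its lowest value, which was also the array with the fewest spots above background, at -0.0026; with median centring it was 0.65 and past the threshold (limma adjusted p = 2.18e-07). Cd163 stood at -0.18 (SE 0.0762, limma adjusted p = 0.0774) and at 0.015 with median centring of the arrays in place of loess.

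Lyve1 went the opposite way: its slope was -0.70 (SE 0.139, 95% interval -0.98 to -0.41, limma adjusted p = 0.000281), a ratio of 0.617 for a doubling of the pan-myeloid mean, although with median centring in place of loess it was 0.15 (adjusted p = 0.361). That centring moved the median slope of all 21051 features to 0.37; relative to that median, Lyve1 was at -0.22, Cd163 at -0.35, Mgl2 at 0.28, Clec10a at 0.36, Mrc1 at 0.45 and C1qb at 0.89. Only 6 features had a negative slope past the threshold under that centring, against 2178 under loess and 2617 with the Cy5 channel alone. The negative calls given for other genes were made under loess. With the Cy5 channel alone Lyve1 was at -0.67, and with each mouse left out in turn it ranged from -0.78 to -0.61. Timd4, without the filter on dim probes, had a slope of -0.22 that did not pass (limma adjusted p = 0.153).

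**Figure D2:**
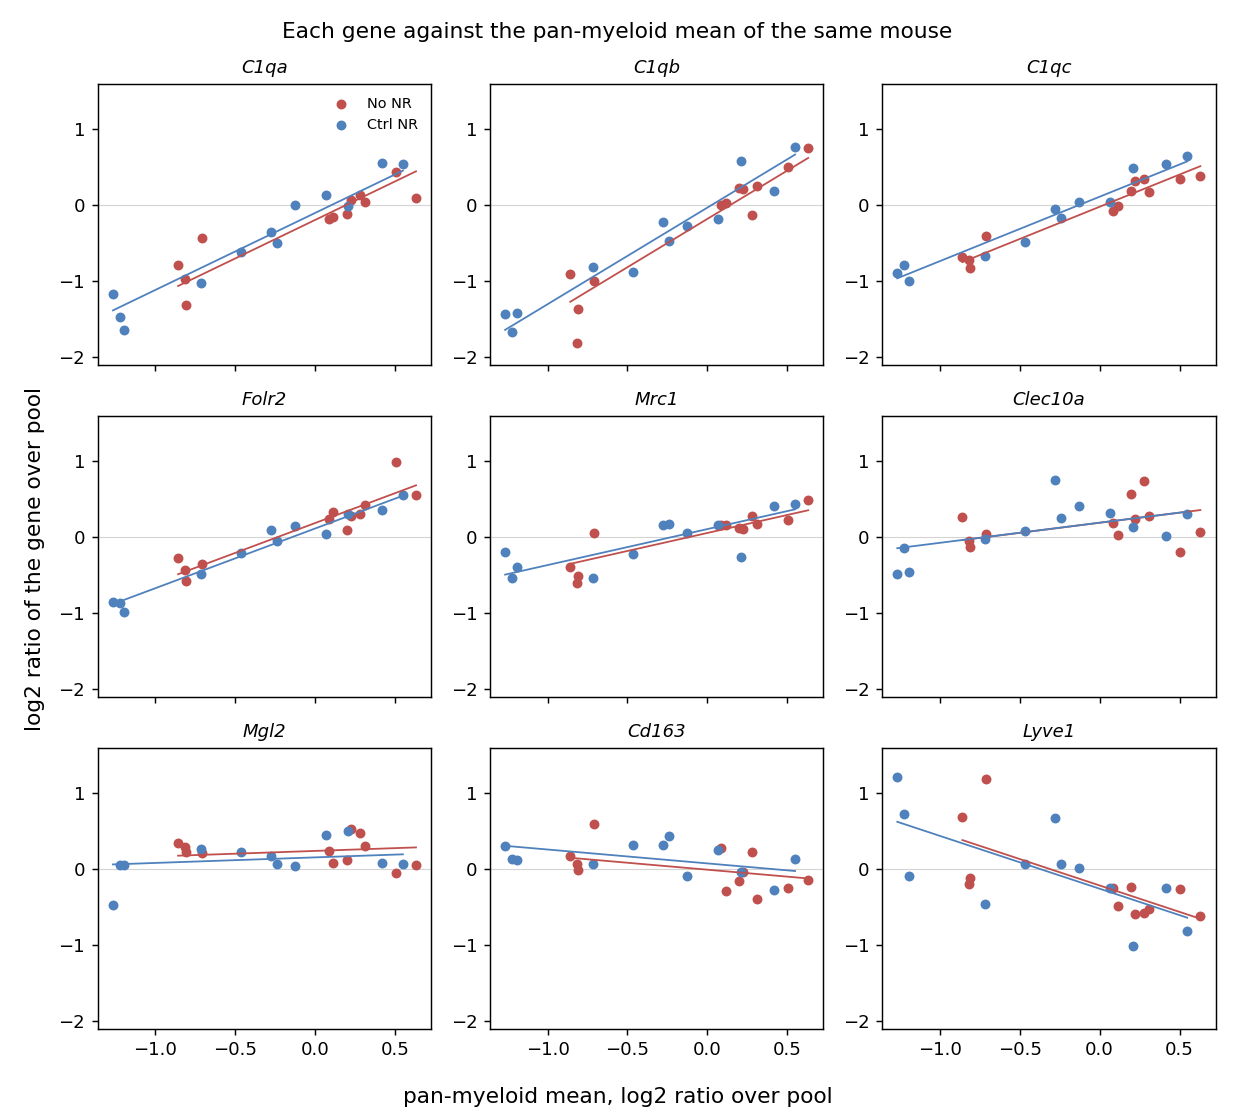
Log2 ratio of each of the 9 measured genes (vertical axes) against the pan-myeloid mean of the same mouse (horizontal axes, log2 ratio over the pool), No NR in red and Ctrl NR in blue; lines show the common slope drawn through each diet's mean. The C1q chains and Folr2 lie close to steep lines (slopes 0.79 to 1.27), Mgl2 lies flat (0.073), and Lyve1 falls with a slope of -0.70; with median centring in place of loess these slopes were 0.65 for Mgl2 and 0.15 for Lyve1.

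The slopes of the genes were then compared pair by pair, in 36 pairs, by a permutation test of the difference with Benjamini-Hochberg adjustment over the pairs; this comparison was added after the slopes were seen. In 33 pairs the slopes differed (permutation adjusted p under 0.05), and the share among pairs of other genes was not computed. The 3 exceptions were Mrc1 with Clec10a (adjusted p = 0.0839), Clec10a with Mgl2 (adjusted p = 0.0501) and Folr2 with C1qc (adjusted p = 0.340). Even among the C1q chains the slopes differed, with that of C1qb above those of C1qa (permutation adjusted p = 0.039) and C1qc (permutation adjusted p = 0.00011). Each chain had 1 probe, and whether the probes respond alike was not tested. The pairs were compared under loess only. With the Cy5 channel alone the slopes were 1.02 for C1qa, 1.25 for C1qb and 0.97 for C1qc.

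No gene's slope was shown to differ between the diets: of the 9, 0 passed the test of the interaction, as did 0% of all features. The lowest p was that of C1qa, with a slope of 0.85 in No NR mice and 1.14 in Ctrl NR mice (limma unadjusted p = 0.0444, adjusted p = 0.486), and 10.1% of all features reached an unadjusted p under 0.05. Lyve1 fell with nearly the same slope in each diet, -0.70 in No NR and -0.69 in Ctrl NR mice, under loess normalization. Mgl2 had a slope of -0.077 in No NR and 0.19 in Ctrl NR mice (limma adjusted p = 0.516 for the difference).

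At an equal pan-myeloid mean, 0 of the 9 genes differed between the diets, against 0.409% of all features (59 higher and 27 lower, and 0 of either with slide as a block). The C1q chains, whose diet difference was above 0 when taken alone, stood below 0 in this fit: C1qa at -0.092, C1qb at -0.15 and C1qc at -0.13. C1qc had the lowest p of the 9 (SE 0.0602, limma unadjusted p = 0.0363, adjusted p = 0.309), where 14.7% of all features reached an unadjusted p under 0.05. Folr2 remained above 0 at 0.072 (SE 0.0645, limma adjusted p = 0.633), and Lyve1 was at 0.043 (SE 0.164, limma adjusted p = 0.931).

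**Figure D3:**
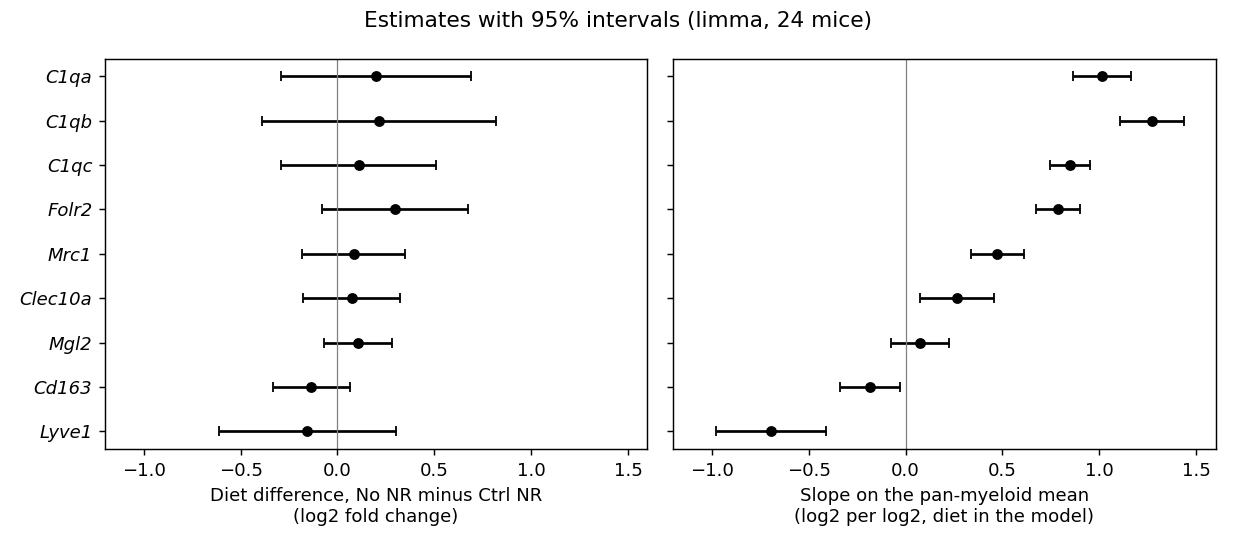
Estimates (points) with 95% intervals (bars) from limma over 24 mice for the 9 measured genes, listed down the page. Left, the log2 fold change of No NR minus Ctrl NR, where every interval includes 0; right, the slope on the pan-myeloid mean in log2 per log2 unit, from 1.27 for C1qb down to -0.70 for Lyve1 (with median centring in place of loess, 0.15 for Lyve1 and 0.65 for Mgl2).

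Correlations across the 24 mice showed which other transcripts each gene went with. Each of the 9 genes was set against the means of 4 lists, which share the arrays and their normalization with the genes. The 36 pairs were tested by permutation with 100000 resamples. The r passed in 26 of them, and in 28 with diet and slide means removed. The share of all features that would pass these tests was not computed, and 26.5% of all features had a slope on the pan-myeloid mean past the threshold. With the lipid-associated macrophage mean (18 genes, among them Trem2, a lipid receptor) r was 0.95 for C1qc, 0.95 for C1qb, 0.94 for Folr2, 0.91 for C1qa and 0.77 for Mrc1. The same 5 genes ran against the adipocyte mean (15 genes), with r between -0.96 for C1qc and -0.81 for Mrc1. In No NR mice alone (n = 12) r with the adipocyte mean was -0.97 for C1qc and -0.88 for Mrc1, and in Ctrl NR mice (n = 12) -0.97 for C1qc and -0.74 for Mrc1.

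Lyve1 and Cd163 had the reverse pattern under loess normalization, the one under which all correlations were computed. Lyve1 had r = -0.77 (rho = -0.83) with the lipid-associated macrophage mean and r = 0.66 (rho = 0.73) with the adipocyte mean, with permutation adjusted p = 4.8e-05 and 0.000739 for r. Without the 2 mice farthest from the median of the list mean, r was -0.67 and 0.65. Cd163 had r = -0.54 (rho = -0.54) with the lipid-associated macrophage mean and r = 0.50 (rho = 0.46) with the adipocyte mean, with permutation adjusted p = 0.0118 and 0.0193 for r, and -0.54 and 0.54 without the 2 mice. For the 8 No NR mice above the gap, r with the pan-myeloid mean was 0.86 for C1qb, 0.81 for Mrc1 and 0.72 for Folr2, while it was -0.30 for Lyve1, -0.31 for Cd163, -0.35 for Clec10a and -0.39 for Mgl2. Over all 12 No NR mice r was 0.95 for C1qb, 0.93 for Folr2, -0.71 for Lyve1, -0.54 for Cd163 and 0.27 for Clec10a. The 8 mice were picked by the pan-myeloid mean itself, which narrows its range and can lower r for any gene. A weaker r, or the turned sign of Clec10a, therefore carries no conclusion on a single gene.

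Clec10a was the gene that went most closely with the mean of 28 other resident macrophage genes, with r = 0.75 and rho = 0.77 (permutation adjusted p = 6.35e-05 for r), 0.63 without the 2 farthest mice and 0.74 with diet and slide means removed. In No NR mice alone r was 0.47 and in Ctrl NR mice alone 0.90 (n = 12 each). Mrc1 had r = 0.46 with this mean (rho = 0.41, adjusted p = 0.0281 for r and 0.0695 for rho). The other 7 genes did not pass, with Lyve1 at r = 0.041 and Mgl2 at 0.29. With diet and slide means removed, C1qa (r = 0.45, permutation adjusted p = 0.0360) and Folr2 (r = 0.44, permutation adjusted p = 0.0424) passed as well. The C1q chains, Folr2 and Mrc1 had r from 0.39 (C1qb) to 0.46 (Mrc1) with this mean. With the lipid-associated macrophage mean their r was higher, from 0.77 (Mrc1) to 0.95 (C1qc). Clec10a with the pan-myeloid mean had r = 0.51 and rho = 0.40 (permutation adjusted p = 0.0176 and 0.0702), and r = 0.49 with diet and slide means removed (permutation adjusted p = 0.0236). Without the 2 farthest mice its r was 0.37 and did not pass (permutation adjusted p = 0.106).

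Other cell types that the tissue could hold were set beside Lyve1 and Cd163, in a second family of 153 pairs added after the first was seen. Lymphatic endothelial cells also express Lyve1, and their mean (4 of 7 genes measured) ranged from -0.41 to 0.72 in No NR and from -0.58 to 0.69 in Ctrl NR mice. Prox1 and Reln, lymphatic markers, were well above background on 0 of the 24 arrays, and 0 of the 4 measured genes had a slope past the threshold. Lyve1 had r = 0.23 (rho = 0.22) with that mean (permutation adjusted p = 0.389). With the mean of 10 blood endothelial genes it had r = 0.46 (rho = 0.57, permutation adjusted p = 0.0458 for r), and Cd163 had r = 0.52 (rho = 0.51, permutation adjusted p = 0.0198 for r). With the mean of the 3 measured red cell genes Lyve1 had r = 0.59 (rho = 0.66, permutation adjusted p = 0.00646 for r) and Cd163 r = 0.58 (rho = 0.54, permutation adjusted p = 0.00849 for r); with slide and diet means removed the adjusted p of Cd163 with the blood endothelial mean was 0.0502, past the threshold no longer. With the mean of the 7 measured mesothelial genes, which cover the surface of the pad, Lyve1 had r = 0.52 (rho = 0.51, permutation adjusted p = 0.0190 for r) and Cd163 r = 0.32 (rho = 0.34, adjusted p = 0.219). Both genes ran against the mean of the 6 measured mast cell genes, Lyve1 at r = -0.60 (rho = -0.66) and Cd163 at r = -0.60 (rho = -0.60, permutation adjusted p = 0.00577 for each r), and against that of the 10 stromal progenitor genes, Lyve1 at r = -0.60 (rho = -0.65, adjusted p = 0.00637) and Cd163 at r = -0.47 (rho = -0.50, adjusted p = 0.0386). With the mean of the 3 measured neutrophil genes Lyve1 had r = -0.60 (rho = -0.56, permutation adjusted p = 0.00577) and Cd163 r = -0.11 (rho = -0.14, adjusted p = 0.725). Those 3 genes did not vary as 1, with slopes on the pan-myeloid mean of 0.86 for S100a8, -0.049 for S100a9 and -0.094 for Csf3r. Retnlg, Cxcr2 and Ngp of the same list were well above background on 0 arrays, so this mean is a poor measure of neutrophils. The part of these other cells in the levels of Lyve1 and Cd163 was not tested.

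Among themselves the C1q chains, Folr2 and Mrc1 went closely together while the pan-myeloid mean was not removed, and the other genes less so. After the diet means were removed, r over the 36 pairs had a median of 0.20, was above 0 in 23, and ran from -0.64 for Lyve1 with C1qb to 0.96 for C1qa with C1qc. The C1q chains and Folr2 had r between 0.90 and 0.96 with each other, and Mrc1 had r between 0.80 and 0.86 with those 4. Clec10a had r = 0.49 with its paralog Mgl2, and from 0.46 (Mrc1) to 0.54 (C1qc) with the C1q chains, Folr2 and Mrc1. Cd163 had r = 0.56 with Lyve1. When the pan-myeloid mean was removed as well, the median r was 0.16. Among the C1q chains, Folr2 and Mrc1, r then ran from -0.059 for C1qa with C1qb to 0.52 for C1qa with C1qc. Lyve1 then had r = 0.74 with Mrc1 and 0.65 with C1qa, the opposite sign to -0.29 and -0.50 before. Mrc1 with Mgl2 stood lowest at -0.52.

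**Figure D4:**
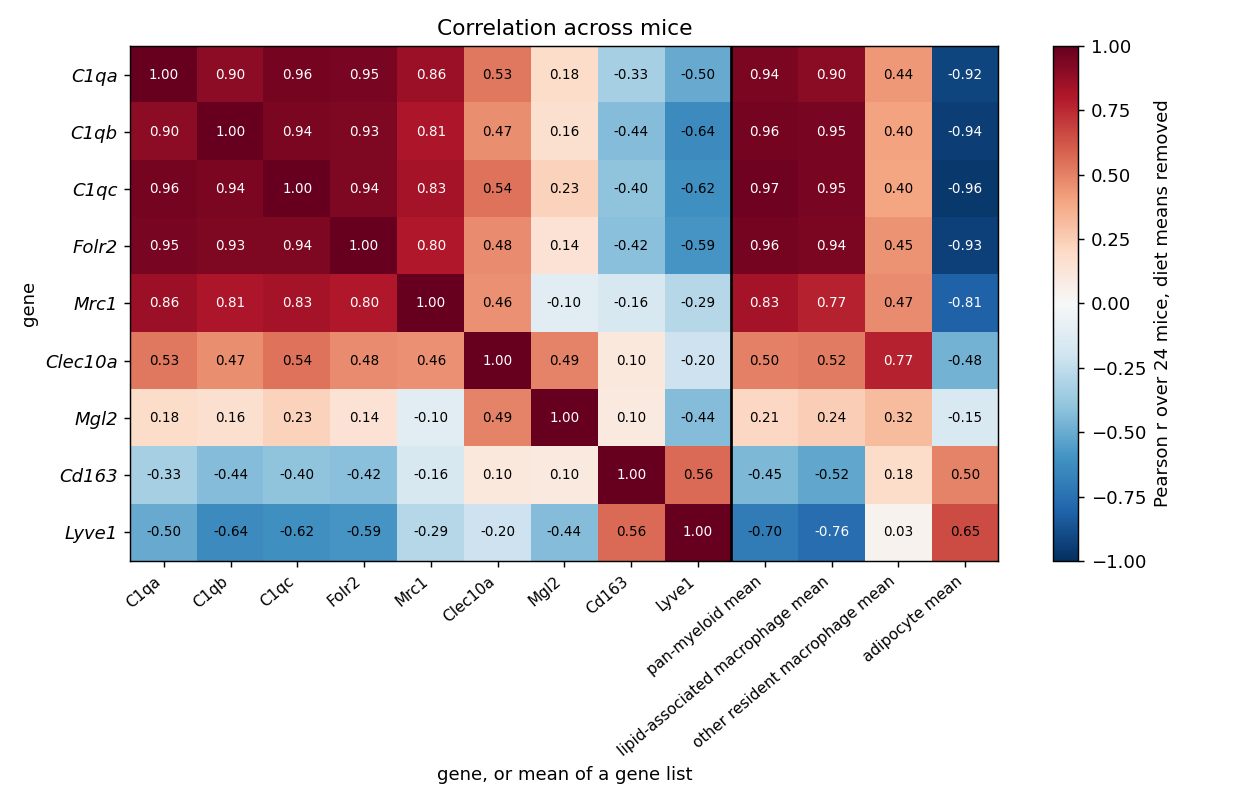
Pearson r over 24 mice, diet means removed, between each of the 9 measured genes (rows) and the same genes or the means of 4 gene lists (columns); red is positive and blue negative. C1qa, C1qb, C1qc, Folr2 and Mrc1 form a block of r from 0.80 to 0.96. With the pan-myeloid mean also removed, which is not drawn, r within that block ran from -0.059 to 0.52. Clec10a goes most closely with the other resident macrophage mean (0.77). Lyve1 and Cd163 run against the pan-myeloid mean under loess normalization (with median centring their slopes were 0.15 and 0.015).

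The transcripts most like each gene over the 24 mice, diet means removed, placed them in different company. C1qc went with Ptpn18, a tyrosine phosphatase (r = 0.99), and Sirpa, the receptor for the signal that spares cells from being engulfed (0.98), which is itself in the pan-myeloid list. C1qb went with Ly86, a partner of the Toll-like receptor homolog RP105 (0.98), and Ncf4, a subunit of the phagocyte oxidase (0.98), and C1qa with Tlr2, a receptor for bacterial lipoproteins, and the ATP-gated channel P2rx7 (0.96 each). Folr2 went with Hexa, a lysosomal hexosaminidase (0.97), and Itgb2, the common chain of leukocyte integrins (0.96). Mrc1 went with Sppl2a, an intramembrane protease (0.93), and Kcnk6, a potassium channel (0.91).

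Lyve1 went with Morc4 (0.87) and Enpp5 (0.84). Mgl2 went with Cdk5rap3 (0.86) and with Irak2, a kinase of Toll-like receptor signalling (0.84), and Clec10a with Dpy19l1 (0.80) and with Slc35c1, a transporter of GDP-fucose into the Golgi (0.80). Cd163, whose probe was dim, had the lowest leading values, with Sh3bp5 (0.75) and Ntsr2 (0.71). These are the highest values among the 13014 named genes after those with clone or accession names and the resident-type genes were left out. They serve as a description.

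The 28 other genes of resident macrophages also went more than 1 way. Of them 10 had a positive slope past the threshold, 9 a negative one and 9 neither, with a median slope of 0.029. Among rising genes the lowest adjusted p was that of Ms4a7, a membrane protein of macrophages (slope 1.72, SE 0.0922, limma adjusted p = 6.22e-15). Among genes that fell under loess the lowest were those of Trf, transferrin, which adipose and other cells also make (-0.49, SE 0.0760, adjusted p = 9.44e-06), and Cd209d, a C-type lectin (-0.80, SE 0.128, adjusted p = 1.49e-05). By diet 14 were higher and 14 lower, and 0 passed; Mertk, a receptor for dying cells, averaged 0.0034 ± 0.17 in No NR and -0.18 ± 0.20 in Ctrl NR mice (limma adjusted p = 0.286), and the iron exporter Slc40a1 averaged -0.20 ± 0.25 in No NR and 0.017 ± 0.29 in Ctrl NR mice (limma adjusted p = 0.338).

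Of 18 further complement genes, 10 rose with the pan-myeloid mean, 1 fell and 7 passed neither way, and 0 passed the diet test. C1ra, the protease that C1q activates first, had a slope of 0.43 (SE 0.0747, limma adjusted p = 5.38e-05) and Serping1, the inhibitor of that protease, 0.48 (SE 0.0939, adjusted p = 0.000193). C2, a later component of the pathway, fell by 0.36 per log2 unit under loess (SE 0.0670, limma adjusted p = 0.000105), and the receptor C3ar1 rose by 1.23 (SE 0.0706, limma adjusted p = 2.66e-14). These 4 were named after their values were seen. C1s1, the second protease of the C1 complex, averaged 0.17 ± 0.19 in No NR and -0.14 ± 0.46 in Ctrl NR mice (limma adjusted p = 0.287), and Cfb, factor B of the alternative pathway, averaged 0.21 ± 0.21 in No NR and -0.096 ± 0.42 in Ctrl NR mice (limma adjusted p = 0.267).

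Of 13 measured genes of the receptors' ligands and uptake partners, 7 rose with the pan-myeloid mean, 1 fell and 5 passed neither way. Has1, a hyaluronan synthase, was the 1 that fell, at -0.38 per log2 unit under loess (SE 0.118, limma adjusted p = 0.0150); it averaged -0.18 ± 0.20 in No NR and 0.13 ± 0.57 in Ctrl NR mice (limma adjusted p = 0.383). Hyal2, which degrades hyaluronan, averaged -0.26 ± 0.19 in No NR and -0.053 ± 0.16 in Ctrl NR mice (limma adjusted p = 0.213). Named after their values were seen, Cd44, another hyaluronan receptor, rose by 1.05 (SE 0.0686, limma adjusted p = 5e-13), where Lyve1 fell under the same normalization, and haptoglobin (Hp) rose by 0.58 (SE 0.153, limma adjusted p = 0.00444), where its receptor Cd163 was at -0.18. Of the other folate carriers, the receptor Folr1, the neighbour of Folr2 on chromosome 7, had a slope of 0.014 (limma adjusted p = 0.962).

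The markers of alternative activation, which the lectins and Mrc1 are often counted among, gave a mixed picture too. Of 9 measured, 3 rose with the pan-myeloid mean, 1 fell and 5 passed neither way; Ccl22, Il10, Il4 and Il13 were well above background on 0 arrays. Arg1, arginase, averaged 0.15 ± 0.24 in No NR and -0.053 ± 0.24 in Ctrl NR mice (limma adjusted p = 0.324), and Il4ra, the interleukin-4 receptor, averaged -0.22 ± 0.17 in No NR and -0.086 ± 0.18 in Ctrl NR mice (limma adjusted p = 0.397). Of 11 measured efferocytosis genes, which bind and engulf dying cells as Timd4 does, 6 rose with the pan-myeloid mean, 0 fell and 5 passed neither way. Axl, a receptor tyrosine kinase of that group, averaged 0.24 ± 0.31 in No NR and -0.037 ± 0.41 in Ctrl NR mice (limma adjusted p = 0.359), and Cd300lf, a receptor for phosphatidylserine, averaged 0.81 ± 0.42 in No NR and 0.48 ± 0.38 in Ctrl NR mice (limma adjusted p = 0.321).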

How the data were processed

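The authors deposited linear spot intensities of each array. They came from Agilent Feature Extraction 10.7.3.1, per the submitters' processing notes. The authors' deposited value table holds log2 values that follow log2 Cy5 intensity (r at least 0.99; medians 8.04); it served as an alternative, its normalization not being given in the sources used here. Median signals were corrected with normexp (offset 50) and loess within arrays (limma 3.58.1, R 4.3.3). Outlier-flagged spots (0.477%) and controls were left out and spots of a probe averaged (55681 probes). Probes well above background in Cy5 on at least 6 of 12 arrays of a diet were kept, and the brightest represented a gene (21051 features). Accessions were matched to RefSeq symbols (27235 probes with 1, 28446 with none). limma fits had diet alone, diet with the pan-myeloid mean, or both with their product. Replicates are mice. The method was checked on simulated data. The genes, lists and tests were chosen with earlier results of these data known. The text names the 10 genes, the 2 likest named genes of each, the 2 genes of each described list with the lowest p by diet and, of the other resident list, the 2 with the lowest p of the slope in each direction. 1 such result is not reported here.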

Additional observations from a re-analysis of the deposited data

How the results depend on the processing

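The count of genes past the diet threshold stayed at 0 under 14 other settings and with each of 24 mice left out; that of the slope was 6 to 8 over 6 settings and 6 to 7 with a mouse left out; that at an equal pan-myeloid mean stayed at 0, and the correlations past the threshold numbered 24 without the 2 farthest mice. With median centring in place of loess the diet differences of C1qc (-0.059), Clec10a (-0.082), Mgl2 (-0.078) and Mrc1 (-0.048) changed sign, as did the slopes of Cd163 (0.015) and Lyve1 (0.15), while the Mgl2 slope was 0.65 and past the threshold; 17537 features then had a positive and 6 a negative slope, and 84 were higher and 180 lower by diet at an unadjusted p under 0.05, against 1447 and 1527. With arrays scaled to equal spread after loess, C1qa (-0.21), C1qb (-0.28), C1qc (-0.15) and Mrc1 (-0.095) changed sign by diet, and the median of the pan-myeloid genes was -0.045. With array weights Clec10a was at -0.0058 and Cd163 reached an unadjusted p of 0.0320 (limma adjusted p = 0.223), and 78 features were called higher and 127 lower; requiring all 24 arrays above background, or a variance trend, gave 0 higher and 3 lower. With the lipid-associated mean as the score Clec10a at an equal mean was at 0.0053. The Cd163 slope passed with that score (-0.18, limma adjusted p = 0.0321), with Cy5 alone (-0.16, 0.0327) and with plain background subtraction (-0.49, 0.0307), a setting added after the data were seen, under which Clec10a lost its call (0.22, 0.0540). With a mouse left out the Mgl2 slope ran from -0.0026 (without Ctrl NR 115) to 0.101, and the Clec10a slope missed the threshold without Ctrl NR mice 115, 75, 88 or 95 or No NR mouse 74 (highest limma adjusted p = 0.0984). The causes were not tested. No paired analysis was possible because the diets share no animal number.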
